A study of Mus musculus with 37 samples.

Results

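Heat shock chaperones were followed in hippocampal astrocytes of mice 4 months after a brain injury or a sham operation. The chaperones were 9 genes, found by their symbols among the 21975 gene identifiers of the deposited tables. They are Hspa8, Hspa1a, Hspa1b and Hspa2, which encode HSP70 proteins of the cytosol, Hspa5, the HSP70 of the endoplasmic reticulum, their cochaperones Hsph1 and Dnajb1, and Hsp90aa1 and Hsp90ab1, the inducible and the constitutive HSP90 of the cytosol. All 9 were found, and all 9 passed the filter on low counts in every fit. They were chosen by name, with earlier results of these data known.

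The mice were males, wild type, of a stock that the labels call CD31 and the methods CD1, and adult at surgery. Injured mice received a controlled cortical impact, a focal blow to the exposed cortex of 1 side. Sham mice underwent the opening of the skull and, like the injured mice, the implantation of recording electrodes. Injured mice with repeated seizures on video and electroencephalography form the PTE+ group (post-traumatic epilepsy) and those without form the PTE- group. The side of the injury or sham operation is called ipsilateral and the other side contralateral. The tissue was dissociated with an enzyme before astrocytes were collected on beads that bind the surface antigen ACSA-2, in all groups alike, so every library comes from cells that went through this procedure. There were 37 libraries of 20 mice. PTE+ mice gave 5 contralateral and 4 ipsilateral libraries, PTE- mice 10 and 8, and sham mice 5 and 5, so that 17 mice gave both. Nothing in the labels dates the isolation of a mouse. Part of each mouse's name is a prefix, a8 for 8 mice and a9 for 12.

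HSP70 proteins bind unfolded stretches of other proteins and release them in a cycle driven by ATP. J-domain proteins such as Dnajb1 start this cycle, and nucleotide exchange factors such as Hsph1, a large relative of HSP70, let it go on. HSP90 takes over clients such as kinases and steroid receptors. Hspa8 and Hsp90ab1 are made in all cells at all times. Hspa1a and Hspa1b are intronless genes that heat shock factor 1 switches on within minutes of heat or proteotoxic stress, through heat shock elements in their promoters. Hspa5, also called BiP, binds the sensors of the unfolded protein response and is itself one of its target genes.

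Hspa1a (ENSMUSG00000091971, chr17:34969190-34972156, minus strand, GRCm38) and Hspa1b (ENSMUSG00000090877, chr17:34956436-34959238, minus strand) are neighbouring copies with 1 exon each. Their promoters are shown because the counts of both copies varied together in these libraries. The RefSeq sequences (GRCm38.p6) run over the 250 bases before the start of each gene, chr17:34972157-34972406 and chr17:34959239-34959488, and the capitals mark a heat shock element of 2 units, GAANNTTC.
Hspa1a: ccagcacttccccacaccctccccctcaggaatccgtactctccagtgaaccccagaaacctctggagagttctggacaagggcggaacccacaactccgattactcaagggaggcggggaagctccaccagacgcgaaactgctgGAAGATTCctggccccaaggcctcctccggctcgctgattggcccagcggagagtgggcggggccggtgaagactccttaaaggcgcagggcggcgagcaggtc
Hspa1b: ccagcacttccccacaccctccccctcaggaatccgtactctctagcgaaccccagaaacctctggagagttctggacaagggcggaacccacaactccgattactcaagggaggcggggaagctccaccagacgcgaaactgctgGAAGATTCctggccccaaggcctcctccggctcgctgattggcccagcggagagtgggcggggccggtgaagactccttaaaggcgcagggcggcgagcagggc

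Both sequences agree at 247 of 250 bases (98.8%), and the element begins 104 bases before the start in each. GAANNTTC, which reads the same on both strands, occurs in 6.69% of the 32851 RefSeq promoters of this length. The arrangement TTCNNGAA occurs in 7.17% of them, and among the 6 members with a RefSeq promoter only Hsph1 has it. The element of 3 units, in which GAA follows GAANNTTC after 2 further bases, on either strand, contains both of the others and occurs in 0.466% of promoters and in that of no member. The promoter of Hspa5 holds an endoplasmic reticulum stress element, shown in capitals in this stretch of chr2:34772020-34772049 on the plus strand.
Hspa5: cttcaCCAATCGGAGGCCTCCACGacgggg

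This element, CCAAT and CCACG with 9 bases between them on either strand, is present in 0.113% of all promoters and, of the members, in Hspa5 alone. It begins 65 bases before the RefSeq start and contains a CCAAT box. The plain CCAAT box occurs in 33.8% of promoters. Counted by gene, over any of its promoters, it occurs in 37.5% of genes and in all 6 members with an entry, though not in every entry of Dnajb1. TATAAA occurs in 12.4% of promoters and in that of no member. Hspa8, Hsp90aa1 and Hsp90ab1 have no entry. These matches describe letters in 1 window and not the binding of a factor.

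Sequence also limits what the counts of the pair can tell. Of the 100-base windows of the Hspa1a transcript, the length of 1 read, 47.1% occur in Hspa1b, and of those of Hspa1b 49.9% occur in Hspa1a. The split of reads between both genes is therefore uncertain, and their sum is given beside them. Hspa1a also overlaps Gm20481 on the opposite strand, and with a kit that does not mark strand their reads cannot be told apart. Windows shared with another annotated gene made up 28.5% of Hspa8 and 38% of Hsp90aa1, mostly with the pseudogenes Gm15459 and Gm12346. Hspa2, Hspa5, Hsp90ab1, Hsph1 and Dnajb1 shared none. In the same build, Hspa2 lies at chr12:76404176-76406938 and Hspa5 at chr2:34771970-34777547 on the plus strand. Hspa8 lies at chr9:40800984-40810087 and Dnajb1 at chr8:83608193-83612653, also on the plus strand. Hsp90aa1 lies at chr12:110690605-110702728, Hsp90ab1 at chr17:45567775-45573271 and Hsph1 at chr5:149614287-149636376 on the minus strand.

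The libraries held 25371887 to 59846479 counts, with a median of 46860387. Astrocyte markers were abundant in every library, with a summed level of 5860 to 21872 TPM (a transcript abundance scaled to the library total, which is comparable between genes because it is scaled by length) for 10 genes, none of them at the counting limit of 3 counts in any library. Summed TPM of 8 neuron markers ran from 33.8 to 1158, of 8 microglia markers from 27.1 to 1326, of 8 oligodendrocyte markers from 263 to 2148 and of 8 endothelial and mural markers from 892 to 8549. Those of 6 ependymal and choroid plexus markers ran from 319 to 10735 and of 5 blood markers from 104 to 16536. Several libraries had lost transcripts: among genes whose median exceeded 1000 counts in the hemisphere, up to 12.97% were at 3 counts or fewer in a contralateral library, and 33.1% in ipsilateral PTE- mouse a8_11, where 9020 genes were detected against a median of 14343 over all libraries. That library also had the lowest astrocyte marker sum and, at 9941 TPM, a high sum of ependymal and choroid plexus markers. In bulk libraries such as these, fewer cells of a type and less RNA per cell cannot be told apart. Each library is a separate mouse within its group, and p-values measure the spread between these mice.

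Hspa8 was the most abundant member, with a median of 947 TPM over the 37 libraries, and Hspa1a the least, with 14.6 TPM. Hsp90aa1 followed Hspa8 with 642 TPM, Hsp90ab1 with 614, Hspa5 with 345 and Hspa2 with 228. The lower members were Hsph1 with 44.8 TPM, Hspa1b with 24.8 and Dnajb1 with 21.6. These 9 levels fall into an upper group of 5 genes and a lower group of 4: Hspa2 exceeded Hsph1 in 37 of 37 libraries. Neighbours within the lower group did not differ beyond their spread, since Hsph1 was above Hspa1b in 21 libraries, Hspa1b above Dnajb1 in 22 and Dnajb1 above Hspa1a in 22. Hsp90aa1 exceeded Hsp90ab1 in only 19 of 37. The order was clearer above and below them, with Hspa8 over Hsp90aa1 in 29 libraries, Hsp90ab1 over Hspa5 in 36 and Hspa5 over Hspa2 in 33.

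**Figure D1:**
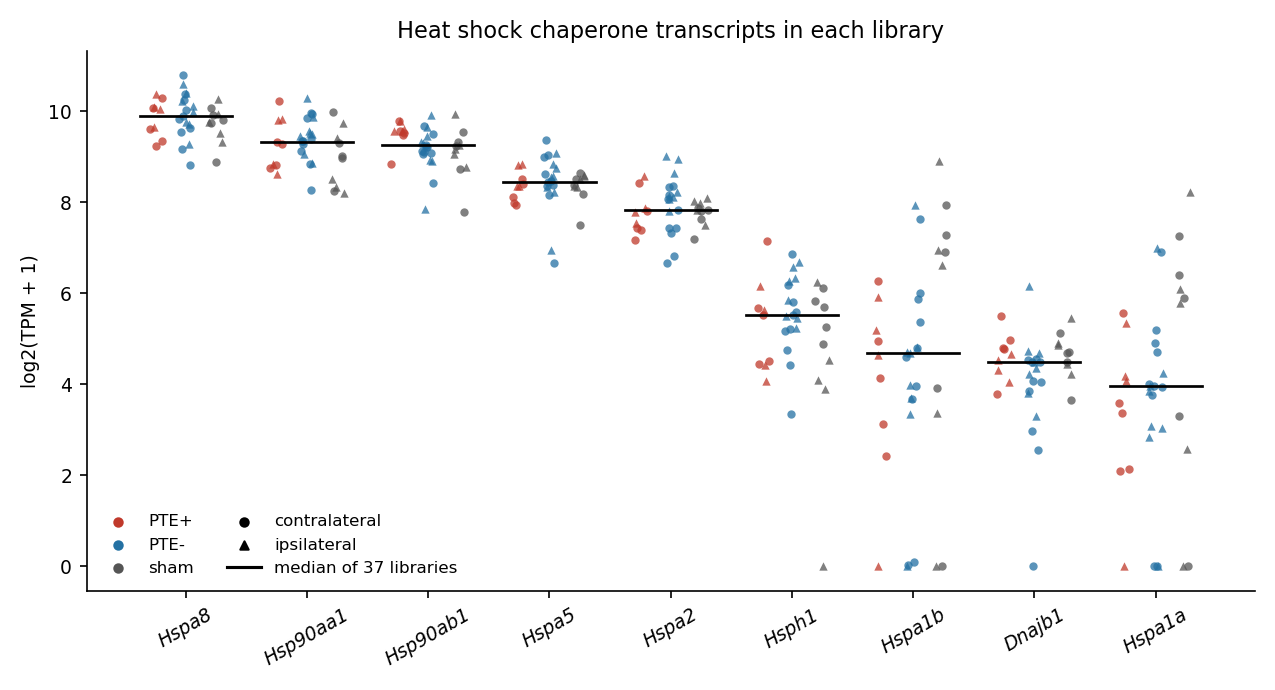
Level of each of the 9 genes as log2(TPM + 1) in the 37 libraries, with circles for contralateral and triangles for ipsilateral libraries, colours for PTE+, PTE- and sham, and a bar at the median of all libraries. The 5 genes from Hspa8 to Hspa2 form narrow bands, whereas Hspa1a and Hspa1b spread from 0 to 300 and 481 TPM.

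The members differed far more in how steady they were. Within groups, the standard deviation of log2(CPM + 1), where CPM is counts relative to library size, scaled between libraries by TMM, was 0.37 for Hsp90ab1, 0.42 for Hspa5, 0.43 for Hspa8, 0.44 for Hspa2 and 0.53 for Hsp90aa1. These 5 were low among the 9586 genes with a median of at least 10 CPM, whose own median was 1.37. They are also the 5 most abundant members, with median levels of 364 to 1134 CPM. No comparison with genes of like abundance was made, so a low spread cannot be told apart from a high level. Hsp90ab1 was undercut by 1.41% of those genes and Hsp90aa1 by 8.12%. Dnajb1 at 1.07 and Hsph1 at 1.23 exceeded 30.4% and 40.1% of them. Hspa1a at 2.66 and Hspa1b at 2.88 stood at the other end, with 99.92% and 99.99% of these genes below them. Hspa1a was at the counting limit in 6 libraries, Hspa1b in 5, Hsph1 and Dnajb1 in 1 each, and the other 5 members in none.

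Hspa1a and Hspa1b varied together across libraries. Reads from the windows that both copies share can be assigned to either, which by itself can make their counts move together. That part was not tested. Hspa1b took between 43.4% and 71.6% of their joint counts, with a median of 61.8%, in the 31 libraries with more than 100 counts of the pair. In contralateral sham libraries, Hspa1b was at 291, 227, 24.7, 0.0230 and 367 CPM in mice a8_15, a8_16, a9_9, a9_10 and a9_11. Hspa1a was at 170 (a8_15), 119 (a8_16), 16.5 (a9_9), 0 (a9_10) and 244 CPM (a9_11) in the same libraries. Both copies were thus high in the same 3 of 5 sham mice.

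In ipsilateral sham libraries, Hspa1b was at 283, 205, 0, 15.7 and 763 CPM in the same order of mice. Hspa1a was at 168, 122, 0, 9.01 and 507 CPM. The 3 mice that were high contralaterally were high here too, while mouse a9_9 had 0 counts of both copies on this side and mouse a9_10 only 1 count of the pair on the other.

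In contralateral PTE+ libraries, Hspa1b was at 134, 16.4, 46.8, 6.59 and 28.9 CPM in mice a8_10, a8_17, a9_17, a9_18 and a9_19. Hspa1a was at 87.8, 7.65, 18.6, 5.36 and 17.2 CPM there. Ipsilaterally, Hspa1b was at 101 CPM in a8_10, 54.8 in a9_17, 39.6 in a9_18 and 0 in a9_19. All 9 PTE+ libraries thus lay below those of the 3 high sham mice, and the low sham libraries lay among or below them.

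In the 10 contralateral PTE- libraries, Hspa1b had its lowest value at 0.0387 CPM, its median at 42.7 and its highest at 347. Hspa1a ran from 0 over 39.98 to 224 CPM in these libraries. In the 8 ipsilateral PTE- libraries, Hspa1b ran from 0.0254 over 30.6 to 427 CPM. The highest value on both sides was that of mouse a8_14, of whose well counted genes 4.49% and 13.1% were at the limit, and the groups overlapped in every comparison.

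Summed over the pair, the 8 highest of the 37 libraries were both libraries of 4 mice, the sham mice a8_15, a8_16 and a9_11 and the PTE- mouse a8_14. They ran from 327 to 1271 CPM, and the next library, of PTE+ mouse a8_10, was at 222 CPM. These mice were picked for their values and were not tested. The 6 libraries with Hspa1a at the counting limit belonged to 6 different mice, whose other library was above the limit where there was one. In 3 of these 6 the share of well counted genes at the limit was 12.9%, 12.97% and 33.1%, in 2 it was 3.45% and 4.10%, and in contralateral sham mouse a9_10 it was 0.0454%. The part of such losses in the values of 0 was not tested.

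**Figure D2:**
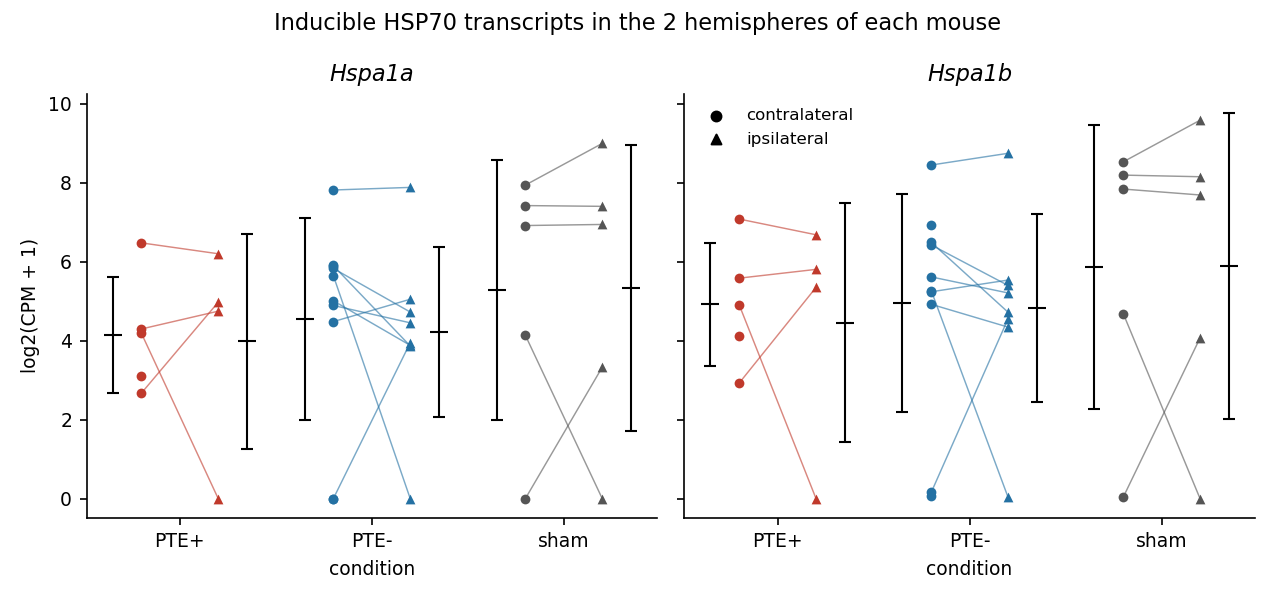
Hspa1a and Hspa1b as log2(CPM + 1), with a line between the contralateral (circle) and the ipsilateral (triangle) library of a mouse and, beside each group, its mean with the SD. In 3 sham mice and 1 PTE- mouse both libraries lie at the top, and most other mice lie far below or have 1 library at 0.

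Hspa8, Hsp90aa1 and Dnajb1 overlapped between all groups. Hspa8, the constitutive HSP70, had group medians between 984 CPM in contralateral PTE+ and 1409 CPM in ipsilateral PTE- libraries, and single libraries ran from 580.0 to 2147. Hsp90aa1 had group medians between 310.3 CPM in ipsilateral sham and 501 CPM in ipsilateral PTE+ libraries, with single libraries from 234 to 975. Dnajb1 had group medians between 28.97 CPM in contralateral PTE- and 64.3 CPM in ipsilateral sham libraries. Outside 2 PTE- libraries, a9_14 at 0.0192 and a8_11 at 171.9 CPM, Dnajb1 stayed between 9.51 and 73.1 CPM.

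The comparison of conditions asks whether the chaperones differed with the injury and with epilepsy. No member passed an adjusted p of 0.05 in any of the 6 comparisons of conditions by the quasi-likelihood F test in edgeR, and none had an unadjusted p under 0.05. In edgeR none met the criteria of the study's methods either. These are a change of at least 1.2-fold, an unadjusted p below 0.05 and a mean above 5 TPM in at least 1 of the groups. The study took its p-values from DESeq2. With DESeq2 here, Hsp90ab1 met the criteria between contralateral PTE+ and sham libraries (log2 fold change 0.44 ± 0.21, SE, unadjusted p = 0.0353). How many of all genes met them with DESeq2 is not given, so this cannot be read as an excess among the members. The lowest adjusted p of a member was 0.567 over all comparisons in edgeR and 0.183 over the alternative procedures, DESeq2 included. Adjusted p-values below are those of edgeR, with Benjamini-Hochberg adjustment over all genes tested. No pair of groups was free of overlap in any member.

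Between contralateral PTE+ and PTE- libraries, 1 of 14642 genes (0.00683%) passed the adjusted p and 185 (1.26%) met the criteria of the methods, none of them a member. Hspa5 came closest, at 396, 442, 460, 486 and 382 CPM in the 5 PTE+ mice and between 280.1 and 895 CPM, with a median of 573, in the 10 PTE- mice. The PTE+ values lay close together in the lower part of the PTE- range. The log2 fold change was -0.44 ± 0.23 (SE, adjusted p = 1.0, unadjusted p = 0.0717), and without PTE- mouse a8_11, the lowest of its group, Hspa5 met the criteria. For the fit without a8_11 the share of all genes meeting them is not given. The log2 fold changes of the other 8 members ran from -0.97 to 0.82 and their unadjusted p from 0.248 to 0.642. Both ends belong to genes of the lower group, Hspa1a and Dnajb1.

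Between contralateral PTE- and sham libraries, 0 genes (0%) passed the adjusted p, with 226 at an unadjusted p under 0.05, and 110 of 14642 (0.751%) met the criteria, with no member among them. Hsp90ab1 came closest, with a log2 fold change of 0.27 ± 0.18 (SE, unadjusted p = 0.139). Without 1 library it ran from 0.10 without sham mouse a8_16 to 0.41 without sham mouse a9_10 (unadjusted p = 0.0380). The other 8 ran from -1.19 for Hspa1b to 0.35 for Hspa5, with unadjusted p from 0.143 to 0.97.

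Between contralateral PTE+ and sham libraries, 0 genes (0%) passed the adjusted p, with 180 at an unadjusted p under 0.05, and 75 (0.512%) met the criteria. Hsp90ab1 was at 879, 636, 786, 844 and 800 CPM in the PTE+ mice. In the sham mice it was at 724, 287, 559, 802 and 578 CPM. The lowest 3 sham mice lay below all PTE+ mice, and the other 2 lay among them. The log2 fold change was 0.42 ± 0.20 (SE, unadjusted p = 0.0518, exact permutation p = 0.0714), and 3 of the other procedures and 3 of the 10 fits without 1 library carried it past the criteria. For these procedures and fits the share of all genes meeting the criteria is not given. Without 1 library the log2 fold change ran from 0.24 without sham mouse a8_16 to 0.56 without sham mouse a9_10. In the other 8 members it ran from -2.02 in Hspa1a to 0.28 in Dnajb1, with unadjusted p from 0.189 to 0.993.

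Between ipsilateral PTE+ and PTE- libraries, 0 of 14903 genes (0%) passed the adjusted p, with 261 at an unadjusted p under 0.05, and 75 (0.503%) met the criteria. Hspa2, an HSP70 best known from the testis, was at 357, 296, 563 and 246 CPM in the PTE+ mice and between 386 and 1046, with a median of 455, in the PTE- mice. In 3 of 4 PTE+ mice it lay under all PTE- mice, and in a9_18 it did not. The log2 fold change was -0.61 ± 0.30 (SE, unadjusted p = 0.0559). Without 1 library it ran from -0.37 without PTE- mouse a8_11 (unadjusted p = 0.129) to -0.89 without PTE+ mouse a9_18 (unadjusted p = 0.0121). In all, 8 of the 9 members had a lower level in PTE+ in this comparison, with a median log2 fold change of -0.46 against -0.01 over all genes tested, and none of them passed the test. Hsph1 had an exact permutation p of 0.0364 here, unadjusted, with a difference of -1.10 on the log2(CPM + 1) scale, and p = 0.360 in edgeR. In the same comparison 0 of 6 ependymal and choroid plexus markers (median -1.35), 2 of 8 microglia markers (-0.57) and 0 of 5 blood markers (-0.31) were higher in PTE+. Among oligodendrocyte markers 2 of 7 tested were higher (-0.16). Other lists leaned upward, with 6 of 10 astrocyte (0.05), 5 of 8 neuron (0.235) and 6 of 8 endothelial and mural markers (0.09) higher. The part of these markers was not tested.

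Between ipsilateral PTE- and sham libraries, 0 genes (0%) passed the adjusted p, with 236 at an unadjusted p under 0.05, and 147 (0.986%) met the criteria. Hspa2 had the smallest p among the members, with a log2 fold change of 0.48 ± 0.27 (SE, unadjusted p = 0.0944), and 0.31 without a8_11. Hsph1, named here after its values were seen, depended on the test. It was at 47.3, 24.9, 0, 159 and 47.3 CPM in the sham mice and between 89.4 and 239 CPM, with a median of 124, in the PTE- mice. In 4 of 5 sham mice it was thus below all PTE- mice, and mouse a9_10 was in their midst. The log2 fold change was 1.39 ± 0.94 (SE, unadjusted p = 0.154) in edgeR. The exact permutation test on log2(CPM + 1), 2-sided, gave a difference of 2.47 with p = 0.00466, or 1.31 with p = 0.0141 without the library at 0. In edgeR, p was 0.0623 without that library and 0.0404 without a9_10. The library at 0 is 1 of those with lost transcripts, 12.9% of its well counted genes being at the limit.

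Between ipsilateral PTE+ and sham libraries, 0 genes (0%) passed the adjusted p, with 248 at an unadjusted p under 0.05, and 73 (0.49%) met the criteria. Hsp90aa1 had the smallest p among the members, with a log2 fold change of 0.46 ± 0.37 (SE, unadjusted p = 0.234), and from 0.24 without a9_18 to 0.66 without a9_10. The other 8 ran from -2.37 in Hspa1b to 0.46 in Hsph1.

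The inducible pair had the widest errors of the members in these comparisons and, against sham mice, the largest differences. Summed into 1 gene, it differed by -1.996 ± 1.476 (log2, SE, unadjusted p = 0.190) between contralateral PTE+ and sham libraries and by -1.14 ± 1.19 (p = 0.352) between PTE- and sham. Ipsilaterally the differences were -2.354 ± 1.955 (p = 0.244) and -1.77 ± 1.52 (p = 0.257) in the edgeR fit. Exact permutation on the log scale gave p between 0.579 and 0.987 in the 6 comparisons. Within mice of prefix a8, injured mice lay below sham mice by 1.14 to 3.70 on the log2(CPM + 1) scale, from 1 to 4 injured and 2 sham libraries, whereas with prefix a9 the differences ran from -0.83 to 0.72. A difference of the size measured could not be told from the spread between mice.

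**Figure D3:**
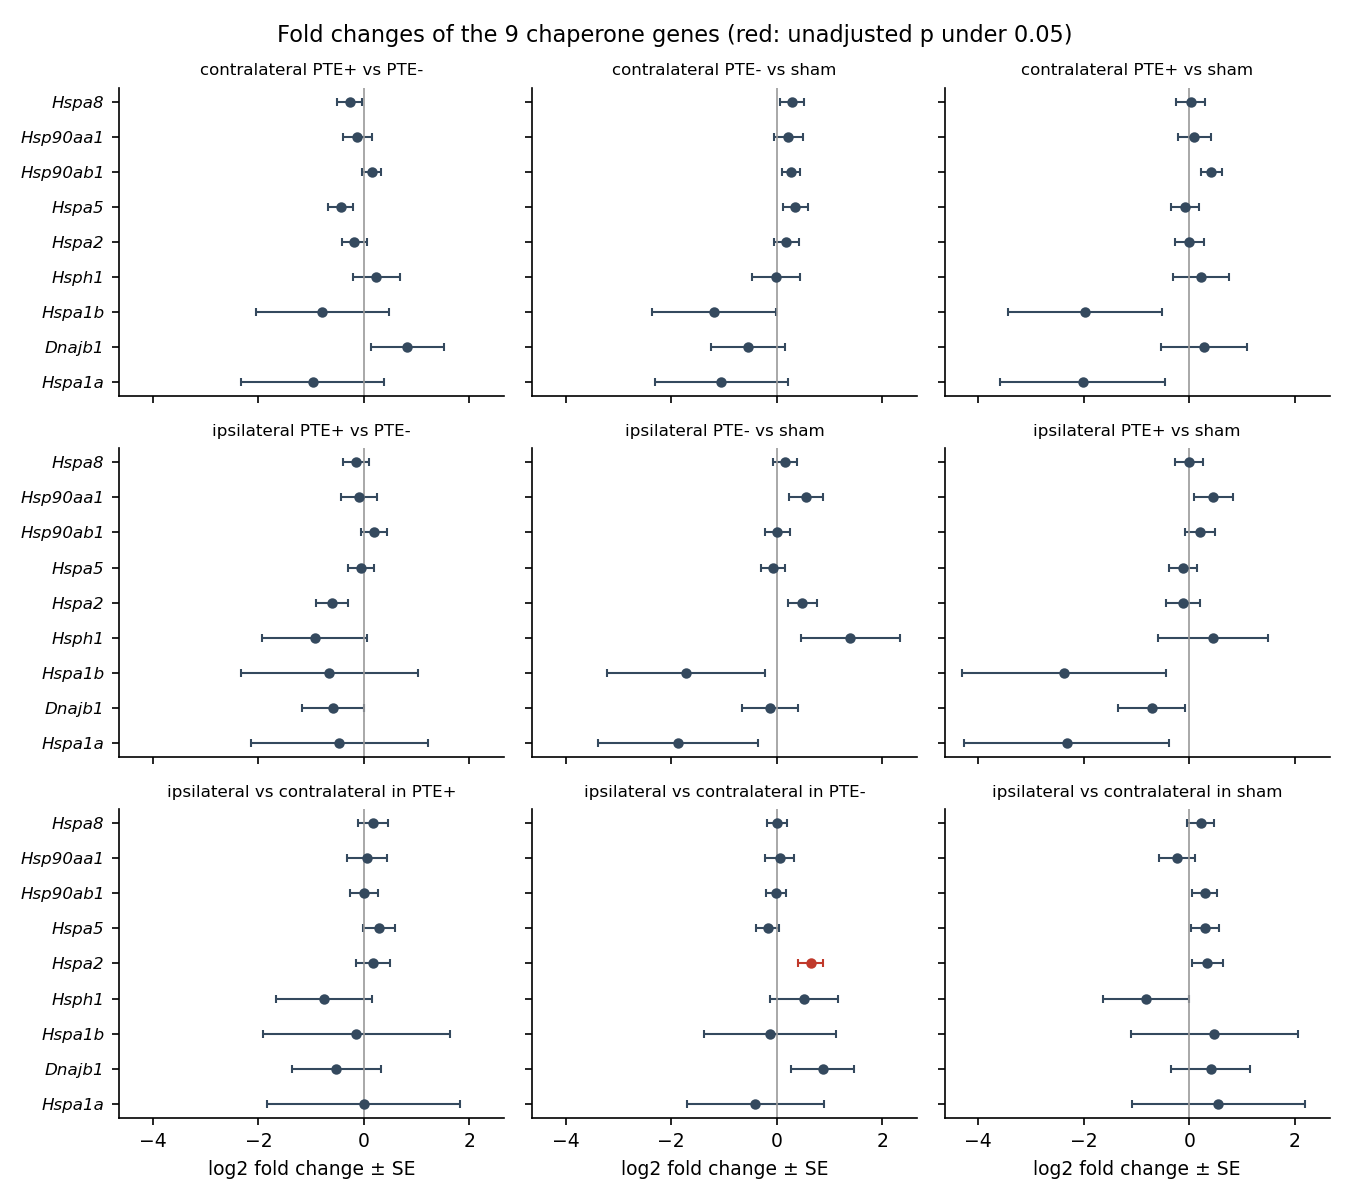
Log2 fold changes from edgeR with their standard errors for the 9 genes in 6 comparisons of conditions and 3 of hemispheres. The errors are wide for Hspa1a and Hspa1b, and Hspa2 between the hemispheres of PTE- mice is the point with an unadjusted p under 0.05, at 0.64 ± 0.23.

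The comparison of hemispheres asks what differed between both sides of the brain within a condition. The counts of genes here come from a fit that does not pair both sides of a mouse. In PTE+ mice 0 of 15731 genes (0%) passed the adjusted p, with 461 at an unadjusted p under 0.05, and 72 (0.458%) met the criteria. In PTE- mice 0 (0%) passed, with 717 at an unadjusted p under 0.05, and 276 (1.75%) met the criteria. In sham mice 0 (0%) passed, with 323 at an unadjusted p under 0.05, and 26 (0.165%) met the criteria. Of the members, Hspa2 in PTE- mice met the criteria, 1 of 9.

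Hspa2 was at 293 CPM contralaterally and 494 ipsilaterally in PTE- mouse a8_9, at 286 and 1046 in a8_11, at 507 and 774 in a8_14 and at 359 and 509 in a9_12. In a9_13 it was at 578 and 411, in a9_14 at 153 and 416, in a9_15 at 297 and 386 and in a9_16 at 375 and 415 CPM. It was higher on the injured side in 7 of 8 mice, with a9_13 as the exception. The log2 fold change was 0.64 ± 0.23 (SE, unadjusted p = 0.00912, adjusted p = 0.567), and 0.65 ± 0.21 in the fit that treats the mouse as a replicate block (unadjusted p = 0.00616, adjusted p = 1.0). The exact test over sign flips within mice gave p = 0.0313.

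Hspa2 had its highest level of all in the ipsilateral library of a8_11. Of all libraries it had the largest share of well counted genes at the counting limit, and it held many ependymal and choroid plexus transcripts. Over all PTE- mice, 6 of 6 ependymal and choroid plexus markers (median 0.89) and 8 of 8 neuron markers (0.63) were higher ipsilaterally, and of the blood markers 1 of 5 (-1.44, 3 with an unadjusted p under 0.05). The part of these markers in the result was not tested. Without this mouse the log2 fold change was 0.43 ± 0.22 (unadjusted p = 0.057), and limma voom with quality weights, which can give single libraries less weight, left 0.15 ± 0.15 (p = 0.325). In sham mice Hspa2 was higher ipsilaterally in 5 of 5 (mean difference 0.34 ± 0.33 log2, SD, exact p = 0.0625, the smallest that 5 pairs allow) and in PTE+ mice in 2 of 4 (0.14 ± 0.27). A difference between conditions in this side-to-side change was not detectable, at 0.31 log2 between PTE- and sham mice (exact permutation p = 0.406) and -0.51 between PTE+ and PTE- mice (p = 0.216).

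In PTE+ mice the smallest p between hemispheres was that of Hspa5, with a log2 fold change of 0.29 ± 0.30 (SE, unadjusted p = 0.338) in the unpaired fit. Within mice Hspa5 was higher ipsilaterally in 4 of 4, by 0.28 ± 0.09 log2 (SD, exact p = 0.125, the smallest that 4 pairs allow). In sham mice the smallest p was that of Hsp90ab1, with 0.29 ± 0.24 (unadjusted p = 0.230), or 0.16 without a8_16. With the mouse as a replicate block, Hspa5 met the criteria in sham mice (0.36 ± 0.15, SE, unadjusted p = 0.0334). The share of all genes meeting them in that fit is not given. All 9 members together had a median log2 fold change of 0.01 in PTE+, 0.01 in PTE- and 0.31 in sham mice, against -0.018, -0.032 and -0.0024 over all genes.

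Hspa5 was higher on the ipsilateral side in most PTE+ and sham mice and lower in most PTE- mice. In PTE+ mice it was higher ipsilaterally in 4 of 4, from 396 to 482 CPM in a8_10, from 460 to 581 in a9_17, from 486 to 616 in a9_18 and from 382 to 425 in a9_19. In sham mice it was higher in 4 of 5, from 458 to 620 in a8_15, from 498 to 633 in a9_9, from 250.1 to 462 in a9_10 and from 458 to 508 in a9_11, and near level in a8_16 at 644 and 632 CPM. In PTE- mice it was higher ipsilaterally in 1 of 8, a9_12, which went from 434 to 567.8.

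The mean within-mouse difference of Hspa5 was 0.28 ± 0.09 log2 (SD, n = 4) in PTE+, -0.16 ± 0.24 (n = 8) in PTE- and 0.36 ± 0.34 (n = 5) in sham mice. In edgeR with the mouse as a replicate block, the change differed by 0.45 ± 0.21 (SE, unadjusted p = 0.0491, adjusted p = 1.0) between PTE+ and PTE- mice and by -0.52 ± 0.20 (unadjusted p = 0.0164, adjusted p = 1.0) between PTE- and sham mice. Over all genes, 182 of 15731 (1.16%) and 168 (1.07%) had an unadjusted p under 0.05 in these contrasts, and 93 (0.591%) between PTE+ and sham mice, where Hspa5 differed by -0.08 ± 0.23 (p = 0.744). No gene (0%) passed the adjusted p in any of the 3 contrasts. Exact permutation of mice gave p = 0.0101 for PTE+ against PTE- and p = 0.00777 for PTE- against sham, for 1 gene and without adjustment. Of the 108 such tests of single members, 6 had p under 0.05, 3 of them for Hsph1, 2 for Hspa5 and 1 for Hspa2. Chance gives such a p in about 1 in 20 tests, and the share over all genes was not taken. Sign-flip tests in PTE+ and sham mice could not reach it, with smallest possible p of 0.125 and 0.0625. The Hspa5 difference between PTE- and sham mice kept its sign within both prefixes. PTE- means were -0.24 (a8, n = 3) and -0.12 (a9, n = 5) against sham means of 0.20 (n = 2) and 0.46 (n = 3). Without sham mouse a9_10 the contrast with PTE- mice was -0.39 ± 0.20 (unadjusted p = 0.0675), and with each other mouse left out in turn its unadjusted p stayed under 0.05. The contrast of PTE+ and PTE- mice ran from 0.41 to 0.52 without single mice, but its unadjusted p was above 0.05 in 10 of these 12 fits, up to 0.106 without a8_10, and under 0.05 only without a8_11 or a9_12. The contrast of PTE+ and sham mice changed sign, to 0.05, without a9_10. Without the block, the unadjusted p was 0.215 and 0.168. Blood markers moved with the contrast of PTE- and sham mice: all 5 had a lower side-to-side change in PTE- than in sham mice, with a median of -2.79 log2, and 4 of them had an unadjusted p under 0.05. In the same contrast 8 of 8 neuron markers had a higher change (median 1.14), 1 of 8 oligodendrocyte markers (median -1.78) and 2 of 10 astrocyte markers (median -0.32). Between PTE+ and PTE- mice, 8 of 10 astrocyte markers had a higher change in PTE+ (median 0.26), as Hspa5 did, and the astrocyte connexin gene Gjb6 had 0.89 ± 0.30 (SE, unadjusted p = 0.00776). Of microglia and of neuron markers 1 of 8 each was higher in that contrast (medians -3.09 and -1.07), and of blood markers 4 of 5 (median 0.81). The part of these markers in the result was not tested.

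**Figure D4:**
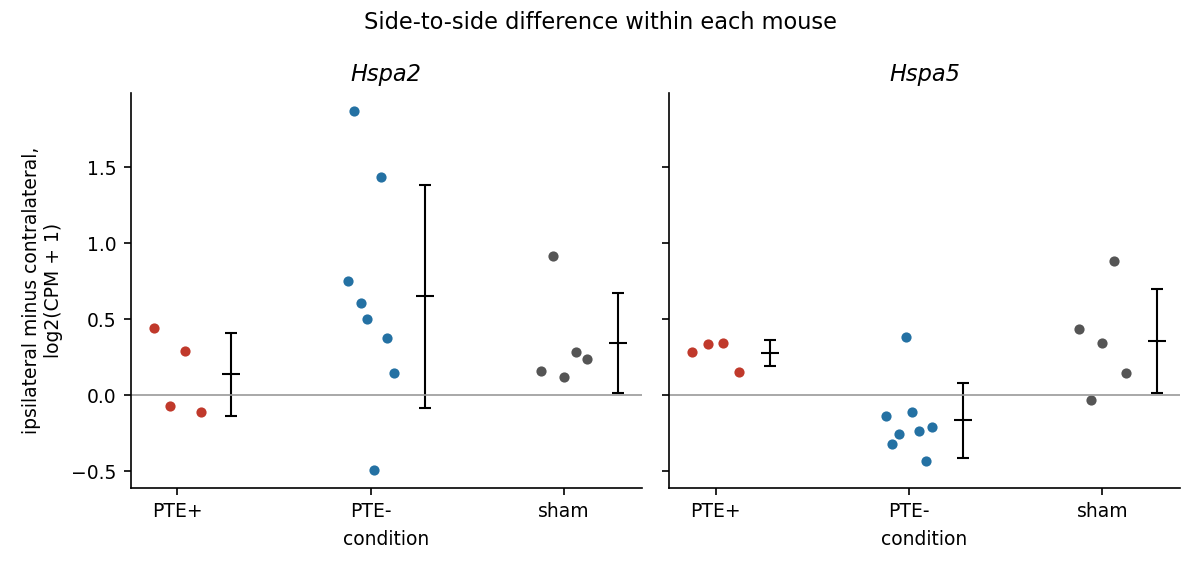
Ipsilateral minus contralateral log2(CPM + 1) of Hspa2 and Hspa5 within each mouse, with the mean and SD of each condition. Hspa5 points lie above 0 in 4 of 4 PTE+ and 4 of 5 sham mice and below 0 in 7 of 8 PTE- mice.

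Levels in both hemispheres of a mouse were then compared across mice, a test chosen after the data were seen. Over the 17 mice with both libraries, deviations from the condition's mean were correlated between the sides for all 12486 genes with a median of at least 1 CPM. The p-values come from 100000 permutations of mice within conditions, adjusted over all genes, of which 15 (0.12%) passed 0.05. The median correlation was 0.07. Hspa8 and Hspa5 were 2 of these 15. Their p-values rest on very few of the permutations, so that the adjusted p of Hspa5, which is close to 0.05, is imprecise.

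Hspa8 had a Pearson correlation of 0.84 (permutation p = 2e-05, adjusted p = 0.0250) and a Spearman correlation of 0.78 (p = 2e-05). Its highest libraries were those of PTE- mouse a8_14, at 2147 CPM contralaterally and 1901 ipsilaterally. Its lowest pair was that of sham mouse a9_10, at 580 and 750 CPM. Without both of these mice, the farthest from the contralateral median, the correlation was 0.77, and 0.74 (permutation p = 0.00039) with the condition means taken anew over the mice that were left.

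Hspa5 had a Pearson correlation of 0.84 (permutation p = 5e-05, adjusted p = 0.0416) and a Spearman correlation of 0.79 (p = 0.0004). The low end was PTE- mouse a8_11, at 280.1 and 224 CPM, and the high end PTE- mouse a9_16, at 895 and 774. Without the farthest mice, a8_11 and a9_10, it was 0.66 by either centring (permutation p = 0.0104 with the new means). The correlations also held within the prefixes, at 0.88 for Hspa8 and 0.96 for Hspa5 with a8 (n = 6) and at 0.81 and 0.72 with a9 (n = 11). The animal and the session in which its tissue was processed cannot be told apart.

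Hspa2 and Hsp90ab1, which spread little between libraries too, had correlations of 0.23 (permutation p = 0.474, Spearman 0.08) and 0.31 (p = 0.235, Spearman 0.41). Those of Hsp90aa1, Dnajb1 and Hsph1 were 0.39, 0.37 and -0.12 (p between 0.169 and 0.524). The difference between these correlations was not tested. For the summed Hspa1a and Hspa1b, Pearson gave 0.41 (p = 0.150) and Spearman 0.72 (p = 0.00439). Mice a8_9 and a9_10, with 6 counts and 1 count of the pair in their contralateral libraries, were farthest from its median, and Pearson without them was 0.61.

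**Figure D5:**
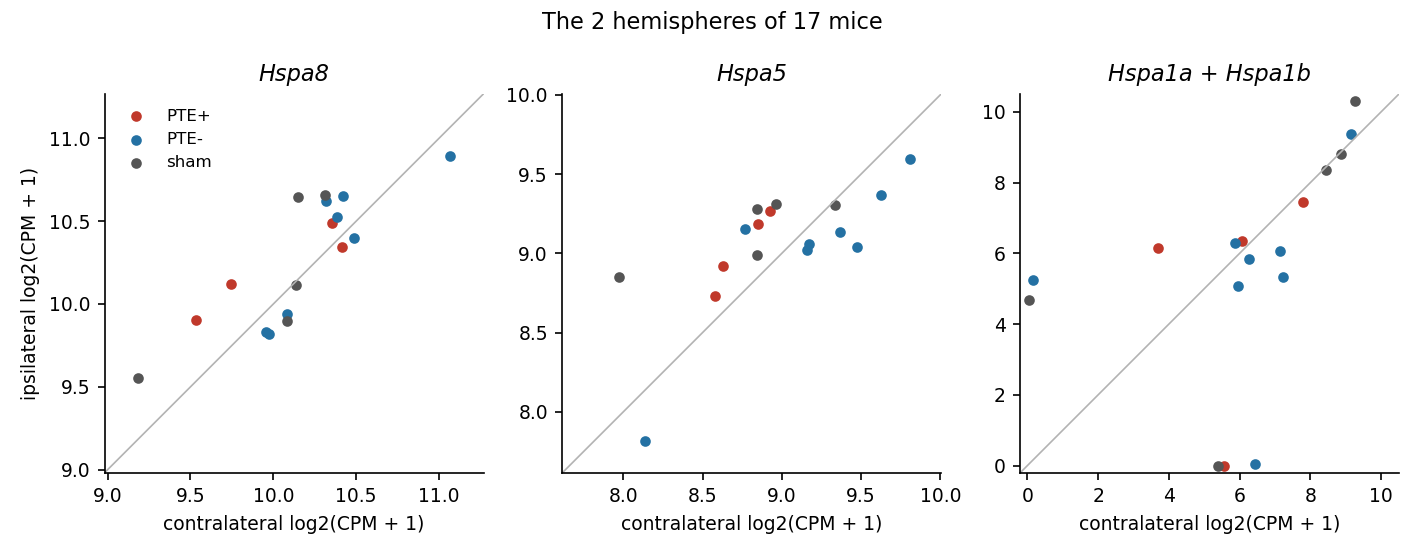
Contralateral (x axis) against ipsilateral (y axis) log2(CPM + 1) of Hspa8, Hspa5 and the summed Hspa1a and Hspa1b in 17 mice, with the line of equal levels. Hspa8 and Hspa5 follow the line, and for the summed pair the mice with both libraries high lie near it while 5 mice have 1 side at or near 0.

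No other member was tied to the inducible pair past the adjusted p. Deviations of each gene were correlated with those of the summed Hspa1a and Hspa1b within a hemisphere, over 20 contralateral and 17 ipsilateral libraries, with permutation within conditions and adjustment over all genes, again chosen after the data were seen. Contralaterally 0 of 12420 genes (0%) and ipsilaterally 67 of 12578 (0.533%) passed an adjusted p of 0.05, with no member among them. Dnajb1, a classical target of heat shock factor 1, had a Pearson correlation of -0.03 contralaterally (permutation p = 0.897, Spearman 0.08) and -0.15 ipsilaterally (p = 0.516, Spearman 0.25). Hsph1, another such target, had -0.02 (p = 0.942, Spearman -0.20) and 0.45 (p = 0.189, Spearman 0.33). Hspa5 had 0.44 (p = 0.0973, Spearman 0.34) and 0.52 (p = 0.0299, adjusted p = 0.164, Spearman 0.37).

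Of 94 genes of the wider network, a few with high correlations are named after their values were seen. Immediate early genes are genes that cells switch on within minutes of a stimulus, and many of them encode transcription factors. Dusp1, a phosphatase of stress kinases, had a Pearson correlation of 0.74 contralaterally (permutation p = 0.001, adjusted p = 0.218, Spearman 0.86) and 0.75 ipsilaterally (p = 0.00118, adjusted p = 0.0639, Spearman 0.80). Without the 2 farthest libraries it was 0.69 and 0.67. Atf4, a factor of the integrated stress response, had 0.65 (p = 0.00039, adjusted p = 0.204) and 0.62 (p = 0.0118, adjusted p = 0.123). None of these passed the adjustment.

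Likeness to the mean log2(CPM + 1) of Hspa1a, Hspa1b, Dnajb1 and Hsph1 was sought by correlation among 9177 genes. It was taken over the 20 contralateral and the 17 ipsilateral libraries, and the lower of both values was kept. These genes were averaged by choice: neither Dnajb1 nor Hsph1 was tied to the pair past the adjusted p. Hsp90aa1 was left out. The SD within groups was 2.7 for Hspa1a and 2.9 for Hspa1b, against 1.1 for Dnajb1 and 1.2 for Hsph1. The pair, with its libraries at the counting limit, therefore weighs most in this mean. The genes most like this mean were Ppp1r15a (lower correlation 0.71), Fbln5 (0.71), Iah1 (0.70), Cln3 (0.69) and Dusp1 (0.68). Libraries share their depth and losses across genes, and these values describe likeness only.

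The wider chaperone network was read through 7 lists with 94 genes: 13 other HSP70, HSP90, HSP110 and chaperonin genes, 9 small heat shock proteins, 15 other J-domain cochaperones, 17 nucleotide exchange factors and HSP90 cochaperones, 5 heat shock factors and their regulators, 15 endoplasmic reticulum stress genes and 20 immediate early genes. None of these genes passed an adjusted p of 0.05 in edgeR in any of the 9 comparisons of groups and hemispheres. At an unadjusted p under 0.05, immediate early genes had 6 of 177 tests (3.39%), small heat shock proteins 2 of 69 (2.90%), other HSP70, HSP90, HSP110 and chaperonin genes 3 of 117 (2.56%), other J-domain cochaperones 3 of 135 (2.22%), endoplasmic reticulum stress genes 2 of 135 (1.48%), exchange factors and HSP90 cochaperones 2 of 153 (1.31%) and heat shock factors 0 of 39. The members had 1 of 81 (1.24%), and all genes together 2975 of 135828 (2.19%).

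Between contralateral PTE+ and PTE- libraries, 2 of 15 endoplasmic reticulum stress genes and 5 of 19 tested immediate early genes were higher in PTE+, with medians of -0.27 and -0.43 against -0.05 over all genes. Egr1, a transcription factor of the immediate early response, had a log2 fold change of -2.62 ± 0.91 (SE, unadjusted p = 0.00909, adjusted p = 1.0 in edgeR). Pdia3, a disulfide isomerase of the endoplasmic reticulum, had -0.42 ± 0.18 (unadjusted p = 0.0311). Stip1, which hands clients from HSP70 to HSP90, had -0.64 ± 0.26 (unadjusted p = 0.0222). Dnajc5, a J-domain protein of synaptic vesicles, had 0.92 ± 0.36 (unadjusted p = 0.0192), and Dnajb11, a J-domain partner of Hspa5, -0.77 ± 0.31 (unadjusted p = 0.0201). All 8 neuron markers were higher in PTE+ here, with a median of 1.31, as were 7 of 8 endothelial and mural markers, with a median of 0.57. Of the astrocyte markers 0 of 10 were higher, with a median of -0.20. The part of these markers in the values was not tested.

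Between ipsilateral PTE+ and PTE- libraries, 0 of 7 tested small heat shock proteins were higher in PTE+, with a median of -1.06 against -0.01 over all genes. Hspb1, the small heat shock protein HSP27, had a log2 fold change of -1.83 ± 0.80 (SE, unadjusted p = 0.0336, adjusted p = 1.0 in edgeR). Cryab, the small chaperone alpha-B crystallin, had -0.96 ± 0.45 (unadjusted p = 0.0470). Dnaja3, a mitochondrial J-domain protein, had -0.87 ± 0.40 (unadjusted p = 0.0448). The 6 ependymal and choroid plexus markers were all lower in PTE+ as well, with a median of -1.35. Microglia (2 of 8 higher), blood (0 of 5) and oligodendrocyte markers (2 of 7 tested) were mostly lower too. Astrocyte (6 of 10 higher), neuron (5 of 8) and endothelial and mural markers (6 of 8) were mostly higher. The part of these markers was not tested.

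Against sham libraries, immediate early genes had the lowest medians of the 7 lists in PTE+ mice and in PTE- mice, on both sides. Contralaterally 4 of 19 tested were higher in PTE+, with a median of -0.54 against 0.03 over all genes, and ipsilaterally 2 of 20, with a median of -1.02 against 0.0016. For PTE- mice 6 of 19 were higher contralaterally (median -0.11 against 0.07) and 7 of 20 ipsilaterally (-0.34 against 0.02). Ipsilaterally 0 of 7 tested oligodendrocyte markers (median -1.57), 0 of 5 blood markers (-1.28), 1 of 8 microglia markers (-0.69) and 1 of 10 astrocyte markers (-0.25) were higher in PTE+ too. Of the other lists, 4 of 8 neuron (0.34), 4 of 8 endothelial and mural (0.007) and 4 of 6 ependymal and choroid plexus markers (0.18) were higher there. Contralaterally 5 of 5 blood markers (median 1.06) and 6 of 8 endothelial and mural markers (0.77) were higher in PTE+. Neuron markers (6 of 8, 0.59), microglia markers (6 of 8, 0.75) and ependymal and choroid plexus markers (6 of 6, 0.36) were mostly higher too. Of the astrocyte markers 2 of 10 (-0.25) and of the oligodendrocyte markers 4 of 8 (-0.02) were higher. The part of these markers was not tested. Dusp1 had an ipsilateral log2 fold change of -1.73 ± 0.60 (SE, unadjusted p = 0.00981, adjusted p = 1.0 in edgeR) in PTE+ and -1.10 ± 0.48 (unadjusted p = 0.0330) in PTE- mice, both against the same 5 sham libraries. Egr1 had a contralateral log2 fold change of -2.45 ± 0.97 (unadjusted p = 0.0194) in PTE+ mice. Stub1, an HSP70-bound ubiquitin ligase, had 0.46 ± 0.19 (unadjusted p = 0.0277) between contralateral PTE- and sham libraries. Between the hemispheres of PTE- mice, Manf, a factor released under endoplasmic reticulum stress, had 0.95 ± 0.41 (unadjusted p = 0.0285, adjusted p = 0.856). In the side-to-side change between PTE- and sham mice, Cdc37, which brings kinases to HSP90, had -1.42 ± 0.53 (unadjusted p = 0.0148) and Stub1 -0.62 ± 0.29 (unadjusted p = 0.0452). Hspa1l and Egr2 were at the counting limit in 21 and 28 of 37 libraries, and no fold is given for them.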

How the data were processed

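Astrocytes were isolated from the hippocampi of 20 mice, 1 library a hemisphere, and sequenced after SMART-Seq amplification, which does not mark strand. Per the labels and methods, the authors trimmed reads with Trim Galore 0.6.4, aligned them with Bowtie2 2.4.1 to mm10 and deposited expected counts per gene from RSEM 1.2.28, which are not normalized, and TPM; their own tests used DESeq2 1.36.0. Here expected counts were rounded and tested with edgeR 4.0.16 (quasi-likelihood F test, filterByExpr, TMM, R 4.3.3), 1 fit of 3 conditions a hemisphere and a joint fit of the 17 mice with both. Standard errors are the size of the log2 fold change over the square root of F. Libraries held 25371887 to 59846479 counts.

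Mice pair the hemispheres by their names. Deviations from group means correlated at a median of 0.08 within mice (17 pairs, -0.06 to 0.37). Between different mice of a condition the median was -0.02 (88 pairs, -0.23 to 0.24), and both ranges overlapped widely. The mouse was a replicate block in the side-to-side contrasts and an alternative elsewhere. Single members were also tested by exact permutation on log2(CPM + 1). Fold changes with errors are given for members with an unadjusted p under 0.05 or the smallest adjusted p of a comparison, for up to 2 genes of each other list with an unadjusted p under 0.05, and for genes said to be chosen otherwise. Alternatives were other size factors, no filter, covariates, DESeq2 1.42.0, limma 3.58.1, and single libraries left out. The members and lists were chosen with earlier results of these data known. The fits were also run on simulated data, which were set to spread less than the real libraries. The real fits had a common coefficient of variation of 1.29 to 1.40 between libraries. The simulation therefore does not show how many changes the fits would miss here.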

Additional observations from a re-analysis of the deposited data

Results flagged for a closer look

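In 5 of 54 groups of a member's values in 1 condition and hemisphere, 1 library stood apart from the others by Dixon's test on log2(CPM + 1), which chance gives in about 1 in 20 groups. In contralateral PTE- mouse a9_14, Hspa2 was at 153.2 CPM, with the next lowest at 286, and Dnajb1 was at 0.01918 CPM, with the next lowest at 9.51. In that library 6.54% of the well counted genes were at the counting limit. In ipsilateral PTE- mouse a8_11, where 33.1% were, Hspa5 was lowest at 224.3 CPM, with the next at 518, and Dnajb1 highest at 171.9 CPM, with the next at 45.1. In contralateral sham mouse a9_10, where 0.0454% were, Hspa8 was lowest at 580.0 CPM, with the next at 1084. The contralateral library of a8_11 was also the lowest of its group in Hspa5, at 280.1 CPM, and the ipsilateral library of a9_10 the lowest of its group in Hspa8, at 750.0 CPM.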

How the results depend on the processing

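For the member with the smallest p in each of the 12 contrasts, all 203 recomputed fold changes kept their direction and their side of the adjusted threshold. Outside these, the Hspa5 side-to-side change between PTE+ and sham mice went from -0.08 to 0.05 without sham mouse a9_10. In the comparisons of groups and hemispheres, the number of members past an adjusted p of 0.05 was 0 in all 166 recomputed comparisons. The number meeting the criteria of the methods changed in 24 of 166. With limma voom and quality weights it was 1 between contralateral PTE+ and PTE- libraries (Hspa2), 1 between ipsilateral PTE+ and PTE- (Hspa2), 3 between ipsilateral PTE- and sham (Dnajb1, Hsp90aa1, Hsph1), 1 between ipsilateral PTE+ and sham (Dnajb1), 0 between the hemispheres of PTE- mice and 1 between those of sham mice (Hspa5). Limma on log2(TPM + 1) gave 2 between ipsilateral PTE- and sham (Hsp90aa1, Hsph1). Detected genes as a covariate gave 1 (Hsp90ab1) in both contralateral comparisons with sham, and size factors by RLE and DESeq2 each gave 1 (Hsp90ab1) between contralateral PTE+ and sham. With the mouse as a replicate block, alone or with detected genes, it was 1 (Hspa5) between the hemispheres of sham mice, and the block changed no other count. The causes were not tested. Shares of all genes meeting the criteria are not given for these fits or for those without 1 library. These counts can therefore not be read as an excess among the members.

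With 1 library left out, the count of members past the adjusted p stayed at 0 to 0. The count meeting the criteria ran from 0 to 1 in the 3 contralateral comparisons, between ipsilateral PTE+ and PTE- and between the hemispheres of PTE- mice, from 0 to 2 between ipsilateral PTE- and sham, and was 0 in the others. The deciding libraries were PTE- a8_11 (Hspa5) for contralateral PTE+ against PTE-, sham a9_10 for PTE- against sham, and PTE+ a8_17, sham a8_15 and sham a9_10 for PTE+ against sham (all Hsp90ab1). Ipsilaterally they were PTE+ a9_18 and PTE- a9_15 and a9_16 for PTE+ against PTE- (Hspa2) and PTE- a8_14 (Hspa1b) and sham a9_10 (Hsp90aa1, Hsph1) for PTE- against sham. Without a8_11, 0 members met them between the hemispheres of PTE- mice. The correlations between hemispheres on log2(TPM + 1), an alternative added after the data were seen, were 0.85 for Hspa8 and 0.87 for Hspa5. Hspa1a was at the counting limit in 6 libraries, Hspa1b in 5 and Hsph1 and Dnajb1 in 1 each, and their fold changes carry the widest errors.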
